A study of Mus musculus with 33 samples.

Results

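The 44 genes described here encode components of the extracellular matrix of the liver, enzymes and inhibitors that crosslink or degrade it, and genes of hepatic stellate cells and other mesenchymal cells. They were taken as a list of named genes and matched by symbol, and all 44 were found among the 25988 genes of the count table. RNA from livers of male C57BL/6J mice was measured by 3' QuantSeq, which sequences the 3' end of polyadenylated transcripts. The labels give an age of 13 to 18 weeks, which the study's methods give as the age when the virus described below was injected. The livers were those of the study's short-term follow-up. The study asked how the transcription factor ChREBP (gene Mlxipl) acts in glycogen storage disease type Ia, in which glucose-6-phosphatase (gene G6pc) is missing. Floxed G6pc was deleted in L-G6pc-/- mice by a tamoxifen-inducible Cre driven by the albumin promoter, so that the deletion is confined by design to hepatocytes. Their L-G6pc+/+ littermates carried the floxed gene without Cre. Mice of both genotypes received tamoxifen and a liver-directed adeno-associated virus coding for a short hairpin RNA against ChREBP (shChREBP) or a scrambled hairpin (shSCR). There were 8 libraries of shSCR/L-G6pc+/+ livers, 8 of shChREBP/L-G6pc+/+ livers, 8 of shSCR/L-G6pc-/- livers and 9 of shChREBP/L-G6pc-/- livers, numbered s1 to s33 in the labels. Whether every library is from a mouse of its own is not given there, so n counts libraries, and p-values measure the spread between them, which may be technical.

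Matrix in the liver is made largely by stellate cells and portal fibroblasts, which deposit fibrillar collagens when they are activated. Quiescent stellate cells store vitamin A and carry Lrat and Reln, and activated ones take up contractile genes such as Acta2. Basement membrane components, namely type IV collagens, laminins, nidogen and perlecan, lie thinly along the sinusoids and are also made by endothelial cells. Hepatocytes make plasma fibronectin. In whole liver, fewer cells of a type and less RNA per cell cannot be told apart.

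Libraries held 1497843 to 3546852 counts (median 2141043), which leaves the scarcest members with few reads. Of the 44 members, 36 passed the filter on low counts and 8 did not, namely Col5a2, Col6a1, Col6a2, Thbs1, Lox, Loxl2, Mmp2 and Tagln. Counts below refer to the 36 that passed, since a gene can pass through 1 group in which it is high. Levels are given as normalised read counts (CPM), which are counts scaled to a common library size after TMM normalisation. Fold changes are log2 fold changes ± standard error from edgeR's quasi-likelihood test, and a gene was called changed at a Benjamini-Hochberg adjusted p under 0.05 over all 10179 genes tested. Transcripts of the hairpin's target, Mlxipl, were lower with shChREBP in L-G6pc-/- livers (-0.57 ± 0.13, adjusted p = 0.00417, edgeR) and in L-G6pc+/+ livers (-0.55 ± 0.13, adjusted p = 0.0129, edgeR). Albumin (Alb), which defines hepatocytes, stood between 4277 and 17387 CPM over the 33 libraries, and the stellate cell gene Lrat was detected in all of them at 7.24 to 24.5 CPM. On the first principal component of all genes, 4 libraries of the shChREBP/L-G6pc-/- group (s29, s30, s32 and s33) stood apart from the other 5. Their summed hepatocyte markers were lower (14769 to 17964 CPM over 12 genes) than in the other 5 libraries (19473 to 25195 CPM). Without them Mlxipl was at -0.27 in L-G6pc-/- livers (adjusted p = 0.214, edgeR). Results that rest on this group are therefore given with and without these 4 libraries.

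Knockdown of ChREBP in L-G6pc-/- livers went with higher levels of 5 matrix genes, and 1 was lower. Of the 36 members, 5 were called higher and 1 lower than in shSCR/L-G6pc-/- livers, where 7.56% of all genes tested were called (3.33% higher and 4.23% lower). Higher were Nid1, Col4a1, Col6a3, Bgn and Tgfbi, and Fn1 was lower. The median log2 fold change of the 36 was 0.28, against 0.01 over all genes tested, and 31 of the 36 values lay above 0. The members were chosen with earlier results of these data known. Whether they shift more than other genes was not tested, here or in the comparisons below. Without the 4 libraries the median was 0.19, 25 of the 36 values lay above 0, and Nid1 alone was called, where the share called among all genes tested was 1.02%. With library sizes in place of TMM, 9 members were called higher and 0 lower, where 11% of all genes tested were called, 75.8% of them higher in place of 44.03%, and the median of all genes moved to 0.11.

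Loss of G6pc by itself changed none of the members past the threshold. In shSCR/L-G6pc-/- against shSCR/L-G6pc+/+ livers, 0 of 36 members were called by edgeR, where 3.23% of all genes tested were called (2.2% higher and 1.03% lower), and 4 had an unadjusted p under 0.05. DESeq2 and limma-voom also called 0. The median log2 fold change of the members was -0.00, with 18 of 36 above 0. The widest values were 0.74 ± 0.28 for Spp1 (adjusted p = 0.169, edgeR) and -0.75 ± 0.61 for Acta2 (adjusted p = 0.643, edgeR).

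In L-G6pc+/+ livers, shChREBP raised 1 of the 36 members, Hspg2, and lowered none, where 5.39% of all genes tested were called (2.16% higher and 3.23% lower). The median log2 fold change of the members was 0.18 and that of all genes 0.03. Of the 36 values 29 lay above 0. In the test of whether the shChREBP effect differed between the genotypes, 0 of 36 members were called by edgeR, where 0.0786% of all genes tested were called (0.0589% higher and 0.0196% lower), and 3 had an unadjusted p under 0.05. DESeq2 called 1 of them, Hspg2, and limma-voom 0. A member called in one genotype and not in the other was thus not shown to respond differently by edgeR's test.

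As compared to shSCR/L-G6pc+/+ livers, shChREBP/L-G6pc-/- livers had 9 of 36 members called higher and 0 lower, where 13.2% of all genes tested were called (6.87% higher and 6.37% lower). These were Col5a1, Col4a1, Nid1, Col6a3, Bgn, Sparc, Spp1, Timp3 and Vim. Against shChREBP/L-G6pc+/+ livers, 2 of 36 were called higher, Nid1 and Col1a1, where 11% of all genes tested were called (6.14% higher and 4.9% lower). Both comparisons share the shChREBP/L-G6pc-/- libraries with the comparison within L-G6pc-/- mice. With the 4 libraries left out, each of them called 1 member, Timp3 higher in the first and Hspg2 lower in the second, where 3.09% and 8.78% of all genes tested were called.

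**Figure D1:**
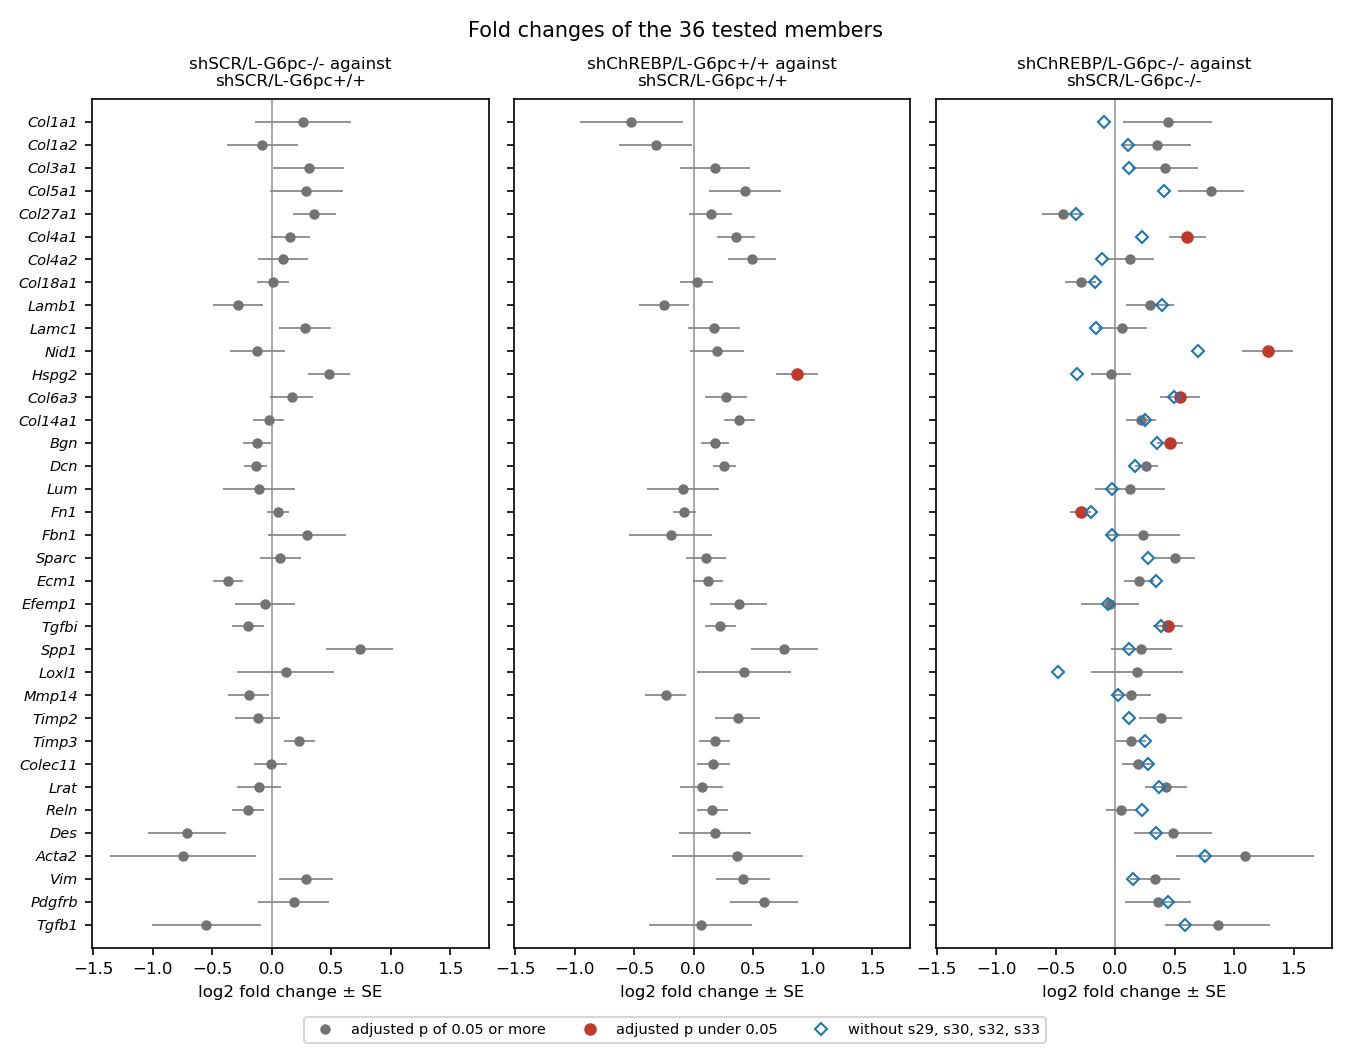
Log2 fold changes (x axis, ± standard error) of the 36 tested members (y axis) in 3 comparisons, with red points for an adjusted p under 0.05. In the right panel, blue diamonds give the values without s29, s30, s32 and s33, where the value for Nid1 lies at 0.70 in place of 1.28 and that for Col4a1 at 0.22 in place of 0.61.

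Among the 7 basement membrane genes, Nid1 and Col4a1 were called higher with shChREBP in L-G6pc-/- livers, and Hspg2 was called higher in L-G6pc+/+ livers. Nid1 encodes nidogen-1, which links the laminin and the type IV collagen networks. Its normalised read counts ran from 9.35 to 18.996 CPM (median 12.95) in shSCR/L-G6pc-/- and from 20.03 to 60.02 CPM (median 22.96) in shChREBP/L-G6pc-/- livers. All 9 libraries of the latter group lay above all 8 of the former, and the highest of the 9 were among the 4 that stood apart. In L-G6pc+/+ livers Nid1 ran from 8.58 to 21.9 CPM (median 14.8) with shSCR and from 12.5 to 20.6 CPM (median 16.7) with shChREBP, and these groups overlapped. With shChREBP the log2 fold change was 1.28 ± 0.21 in L-G6pc-/- (adjusted p = 1.58e-04, edgeR) and 0.19 ± 0.23 in L-G6pc+/+ livers (adjusted p = 0.662, edgeR). These effects differed by 1.09 ± 0.31, short of the threshold (adjusted p = 0.146, edgeR).

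The rise of Nid1 was smaller without the 4 libraries but was still called. In these 4 libraries Nid1 stood at 28.2 to 60.02 CPM, above the 20.03 to 22.96 CPM of the other 5. Without the 4, Nid1 was at 0.70 in L-G6pc-/- livers (adjusted p = 0.0337, edgeR). Against shSCR/L-G6pc+/+ livers the value of 1.16 ± 0.21 (adjusted p = 1.83e-04, edgeR) became 0.57 (adjusted p = 0.052, edgeR). Against shChREBP/L-G6pc+/+ livers 0.96 ± 0.21 (adjusted p = 0.00227, edgeR) became 0.38 (adjusted p = 0.154, edgeR). Leaving out any single library ended none of these 3 calls.

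Col4a1 and Col4a2 encode the paired chains of the most widespread type IV collagen and lie head to head on chromosome 8. Col4a1 ran from 19.98 to 36.6 CPM (median 27.1) in shSCR/L-G6pc-/- and from 28.5 to 65.2 CPM (median 33.7) in shChREBP/L-G6pc-/- livers. The groups overlapped, with 4 of the 9 shChREBP libraries above all shSCR libraries, and these 4 were s29, s30, s32 and s33 (38.5 to 65.2 CPM, against 28.5 to 33.7 CPM in the other 5). In shSCR/L-G6pc+/+ livers it ran from 20.04 to 27.5 CPM (median 24.8), below all 9 shChREBP/L-G6pc-/- libraries, and in shChREBP/L-G6pc+/+ livers from 23.2 to 36.8 CPM (median 32.03). With shChREBP it was 0.61 ± 0.15 higher on the log2 scale in L-G6pc-/- livers (adjusted p = 0.0103, edgeR). Leaving out the 4 libraries made this 0.22 (adjusted p = 0.574, edgeR). With shChREBP in L-G6pc+/+ livers the value of Col4a1 was 0.35 ± 0.16 (adjusted p = 0.183, edgeR). There 6 of the 8 shChREBP libraries lay above all shSCR libraries. In shChREBP/L-G6pc-/- against shSCR/L-G6pc+/+ livers Col4a1 was at 0.76 ± 0.15 (adjusted p = 6.38e-04, edgeR), and without the 4 libraries at 0.38 (adjusted p = 0.133, edgeR). Col4a2 ran from 5.95 to 13.9 CPM (median 7.33) in shSCR/L-G6pc-/- and from 5.88 to 13.3 CPM (median 8.68) in shChREBP/L-G6pc-/- livers, which overlapped over nearly their whole range. Col4a2 had a value of 0.12 ± 0.20 with shChREBP in L-G6pc-/- livers (adjusted p = 0.777, edgeR) and of 0.50 ± 0.20 in L-G6pc+/+ livers (adjusted p = 0.137, edgeR). Whether these values differed from those of its partner was not tested.

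Hspg2 encodes perlecan, the heparan sulfate proteoglycan of basement membranes. It ran from 18.5 to 29.99 CPM (median 23.4) in shSCR/L-G6pc+/+ and from 26.6 to 69.1 CPM (median 40.1) in shChREBP/L-G6pc+/+ livers. Of the 8 shChREBP libraries 7 lay above all shSCR libraries. In L-G6pc-/- livers it ran from 22.96 to 47.3 CPM (median 32.6) with shSCR and from 18.4 to 45.8 CPM (median 32.4) with shChREBP, and the groups overlapped. With shChREBP the log2 fold change was 0.87 ± 0.18 in L-G6pc+/+ (adjusted p = 0.00341, edgeR) and -0.04 ± 0.17 in L-G6pc-/- livers (adjusted p = 0.931, edgeR). The difference between these effects was -0.91 ± 0.24 (adjusted p = 0.123, edgeR), and it passed with DESeq2 (-0.90, adjusted p = 0.0436) and without the 4 libraries (-1.19, adjusted p = 0.0266, edgeR). Without the 4 libraries Hspg2 was also lower in shChREBP/L-G6pc-/- than in shChREBP/L-G6pc+/+ livers (-0.71, adjusted p = 0.0163, edgeR), where the value with all libraries was -0.43 ± 0.17 (adjusted p = 0.0902, edgeR). The rise in L-G6pc+/+ livers was called in all 10 alternatives and in all 16 fits that left out 1 library.

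The other members of this group, Col4a2, Col18a1, Lamb1 and Lamc1, were called in none of the 6 comparisons. Col18a1 encodes the collagen from which endostatin is cut. It had a median of 520 CPM (323 to 759) in shSCR/L-G6pc-/- and of 382 CPM (326 to 607) in shChREBP/L-G6pc-/- livers, with a log2 fold change of -0.29 ± 0.13 (adjusted p = 0.186, edgeR). The laminin chain genes Lamb1 and Lamc1 had values of 0.29 ± 0.20 (adjusted p = 0.418, edgeR) and 0.06 ± 0.21 (adjusted p = 0.903, edgeR) in the same comparison.

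**Figure D2:**
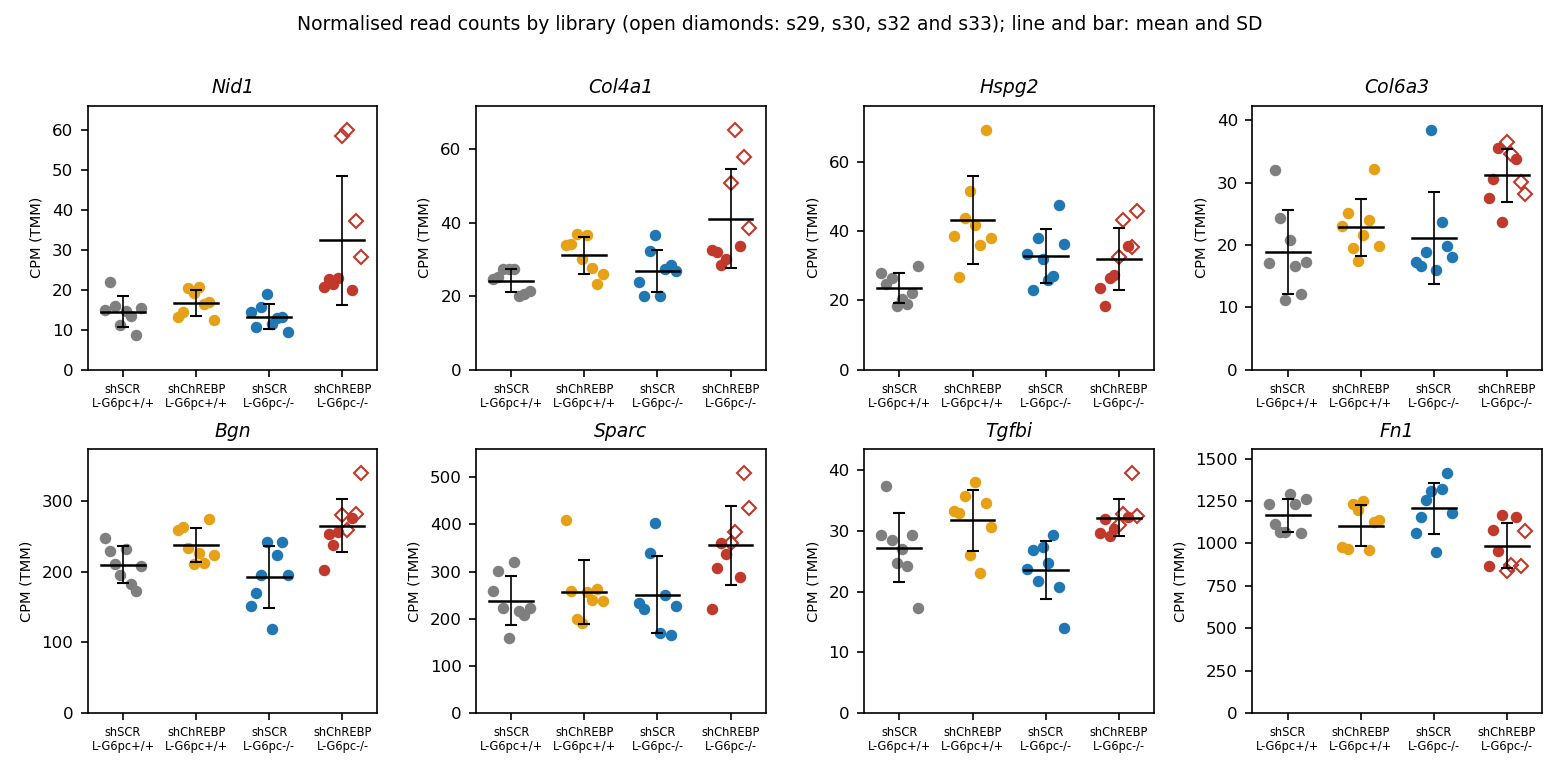
Normalised read counts (y axis, CPM, starting at 0) of 8 called members in each library by group (x axis), with the mean and SD, and open diamonds for s29, s30, s32 and s33. The 9 shChREBP/L-G6pc-/- libraries lie at 20.03 CPM or more for Nid1 and the 8 shSCR/L-G6pc-/- libraries at 18.996 CPM or less.

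The stretches just upstream of Nid1 and Hspg2 are shown because each of these membrane genes was called for shChREBP in one genotype, and the point where Col4a1 and Col4a2 meet because the genes share it. Capitals mark matches, on either strand, to the letters searched for. These were GGGCGG for the GC box, CCAAT for the box of that name, GGAATG for TEAD factors, TGANTCA for AP-1, and CACGTG for the E-boxes that make up the response element of ChREBP. The sequences are RefSeq's, on GRCm38.p6, read 5' to 3' on the plus strand, and end before the first annotated base of Nid1 and Hspg2.
Nid1, chr13:13437352-13437550: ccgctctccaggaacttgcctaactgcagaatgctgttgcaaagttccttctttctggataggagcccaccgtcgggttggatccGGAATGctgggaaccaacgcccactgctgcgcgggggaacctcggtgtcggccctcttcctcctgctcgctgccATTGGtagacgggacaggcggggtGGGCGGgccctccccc
Hspg2, chr4:137468553-137468768: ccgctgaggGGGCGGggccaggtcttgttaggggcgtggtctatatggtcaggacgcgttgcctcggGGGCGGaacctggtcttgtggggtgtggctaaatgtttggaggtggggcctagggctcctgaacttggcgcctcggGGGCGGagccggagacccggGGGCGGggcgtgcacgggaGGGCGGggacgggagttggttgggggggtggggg
Col4a1 and Col4a2, chr8:11312805-11312826: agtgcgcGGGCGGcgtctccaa
The Hspg2 stretch of 216 bases held 5 GC boxes and none of the other motifs. The Nid1 stretch of 199 bases held 1 GC box, 1 CCAAT box (as its reverse complement) and 1 GGAATG. On chromosome 8, the 22 bases between the starts of Col4a2 on the plus strand and Col4a1 on the minus strand belong to the first exons of both and hold 1 GC box.

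Promoter windows of 300 bases, from 250 before the start, were at hand for 30 of the 44 members and for 27025 genes in all. GGGCGG was present in 73.3% of the members' windows (22 of 30) and in 35.9% of all windows. CCAAT was present in 36.7% of the members' and 37.9% of all windows, and GGAATG in 16.7% and 14.6%. CACGTG was found in 1 of the 30 windows, 3.33% against 7.24% of all, and TGANTCA in 3 of them, against 7.93% of all windows. Of the 13 members called in any comparison, 11 had a window, and none of these 11 held CACGTG or TGANTCA. The windows of all genes include genes that were not tested here, and shares over the tested genes alone were not counted. These are counts of letters in a window and no measure of binding.

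Of the 6 fibrillar collagen genes, which encode the chains of the large tensile fibres, 5 were tested and none was called for shChREBP within either genotype by edgeR, DESeq2 or limma-voom. At an unadjusted p under 0.05 there were 2 in L-G6pc-/- and 0 in L-G6pc+/+ livers. Col5a1, a chain of the type V collagen that starts fibre assembly, ran from 1.46 to 8.62 CPM (median 3.67) in shSCR/L-G6pc+/+ and from 3.31 to 13.7 CPM (median 11.5) in shChREBP/L-G6pc-/- livers. The ranges overlapped, and 6 of the 9 libraries of the latter group lay above all of the former. Col5a1 was 1.09 ± 0.28 higher on the log2 scale in shChREBP/L-G6pc-/- livers (adjusted p = 0.0065, edgeR), and 0.70 without the 4 libraries (adjusted p = 0.286, edgeR). Against shSCR/L-G6pc-/- livers, where it ran from 1.998 to 9.62 CPM (median 5.52), its value was 0.80 ± 0.28 (adjusted p = 0.0685, edgeR).

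Col1a1, the main chain of type I collagen, was spread more widely within groups than between them. It ran from 3.03 to 27.9 CPM (median 6.13) in shSCR/L-G6pc+/+, from 4.02 to 13.3 CPM (median 5.16) in shChREBP/L-G6pc+/+, from 3.90 to 33.4 CPM (median 8.10) in shSCR/L-G6pc-/- and from 6.99 to 22.8 CPM (median 13.5) in shChREBP/L-G6pc-/- livers. All 4 groups overlapped, and the highest libraries of all belonged to the shSCR groups, s20 and s2. Col1a1 was called higher in shChREBP/L-G6pc-/- than in shChREBP/L-G6pc+/+ livers (1.22 ± 0.40, adjusted p = 0.0423, edgeR). Leaving out the 4 libraries, which stood at 17.4 to 22.8 CPM against 6.99 to 13.5 CPM in the other 5, gave 0.69 (adjusted p = 0.396, edgeR). The call was also lost when any of s9 to s14, s16, s29, s30, s32 or s33 was left out alone (1.12 to 1.47 over all fits that left out 1 library, adjusted p up to 0.0821, edgeR). With shChREBP in L-G6pc-/- livers Col1a1 had a value of 0.44 ± 0.37 (adjusted p = 0.53, edgeR), which was -0.09 without the 4 libraries.

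Col1a2 and Col3a1, which encode the second chain of type I collagen and the chain of type III collagen, followed Col1a1 from library to library. In shChREBP/L-G6pc-/- livers Col1a2 ran from 21.7 to 48.9 CPM (median 26.5), and in shSCR/L-G6pc-/- livers from 9.28 to 62.1 CPM (median 16.6). Col3a1 ran from 18.3 to 36.01 CPM (median 22.96) in the former and from 10.7 to 44.9 CPM (median 16.9) in the latter. In both genes the highest value of all 33 libraries was that of s20 in the shSCR group. Their log2 fold changes were 0.35 ± 0.29 (adjusted p = 0.512, edgeR) and 0.42 ± 0.28 (adjusted p = 0.388, edgeR). Against shSCR/L-G6pc+/+ livers, Col3a1 had a value of 0.72 ± 0.28 (adjusted p = 0.0799, edgeR), which passed in 3 of the 10 alternatives, with limma-voom (0.89, adjusted p = 0.0154), with limma on the deposited values (0.85, adjusted p = 0.0449) and with library sizes (0.81, adjusted p = 0.0466, edgeR). Col1a1 (0.70, adjusted p = 0.24, edgeR) passed there with limma-voom alone (1.01, adjusted p = 0.045). In shChREBP/L-G6pc-/- against shSCR/L-G6pc-/- livers Col27a1, which encodes another fibrillar collagen, had the lowest value of the 36 members, -0.44 ± 0.17 (adjusted p = 0.119, edgeR). Col5a2 was not tested, with 38 to 62 counts summed over each group.

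**Figure D3:**
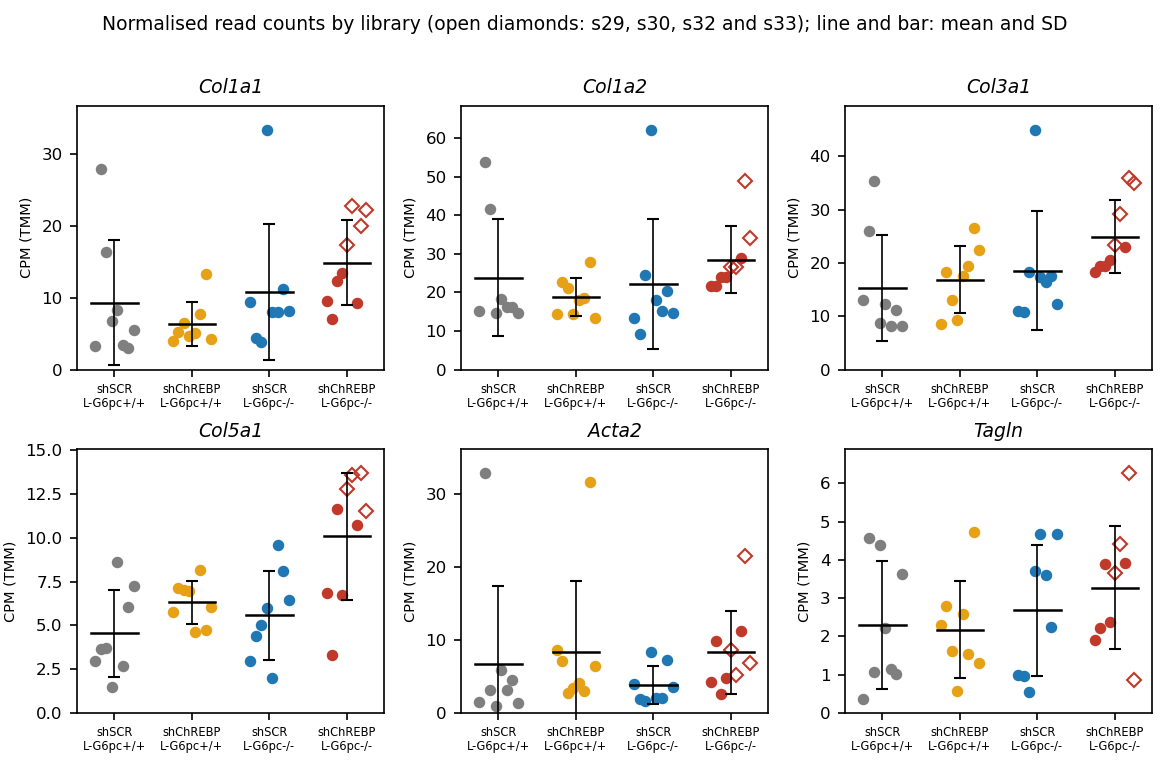
Normalised read counts (y axis, CPM, starting at 0) of 4 fibrillar collagen genes and of the contractile genes Acta2 and Tagln in each library by group (x axis), with the mean and SD, and open diamonds for s29, s30, s32 and s33. Single libraries carry the upper end of the shSCR groups, at 27.9 and 33.4 CPM for Col1a1, above the 22.8 CPM reached in shChREBP/L-G6pc-/- livers.

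The type VI collagen gene Col6a3, which encodes the largest chain of a microfibril around cells, rose in shChREBP/L-G6pc-/- livers. It ran from 15.985 to 38.5 CPM (median 18.5) in shSCR/L-G6pc-/- and from 23.6 to 36.5 CPM (median 30.5) in shChREBP/L-G6pc-/- livers. The highest of these values was a shSCR library, s20, and the next highest shSCR library stood at 23.7 CPM, so that the groups overlapped. Col6a3 had a log2 fold change of 0.54 ± 0.17 (adjusted p = 0.0411, edgeR). The call was lost when any of s17 to s19, s21 to s24, s27 or s29 to s32 was left out (0.50 to 0.72 over all fits that left out 1 library, adjusted p up to 0.0863, edgeR). Against shSCR/L-G6pc+/+ livers (11.2 to 31.97 CPM, median 17.2) it was 0.71 ± 0.17 (adjusted p = 0.00365, edgeR), and no single library ended that call. Without the 4 libraries the values were 0.50 (adjusted p = 0.296, edgeR) and 0.66 (adjusted p = 0.07, edgeR), close to those with all libraries. Col14a1, a collagen that binds fibre surfaces, had a value of 0.22 ± 0.13 with shChREBP in L-G6pc-/- (adjusted p = 0.315, edgeR) and 0.39 ± 0.13 in L-G6pc+/+ livers (adjusted p = 0.0706, edgeR). The partner chains of Col6a3, Col6a1 and Col6a2, were too low to test, each with 26 to 70 counts summed over a group.

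Of the 11 proteoglycan and glycoprotein genes, 10 were tested, and with shChREBP in L-G6pc-/- livers Bgn and Tgfbi rose and Fn1 fell. Bgn encodes biglycan, a small proteoglycan that binds collagen. It ran from 119 to 242 CPM (median 195) in shSCR/L-G6pc-/- and from 203 to 339 CPM (median 258) in shChREBP/L-G6pc-/- livers. The groups overlapped, with 7 of the 9 shChREBP libraries above all shSCR libraries. Bgn was higher by 0.46 ± 0.11 on the log2 scale (adjusted p = 0.00786, edgeR) and by 0.35 without the 4 libraries (adjusted p = 0.204, edgeR). Against shSCR/L-G6pc+/+ livers (173 to 247 CPM, median 209) it was 0.34 ± 0.11 (adjusted p = 0.039, edgeR), a call that was lost when any of s3, s4, s6 to s8 or s29 to s33 was left out (0.27 to 0.37 over all such fits, adjusted p up to 0.0977, edgeR) and without the 4 libraries (0.23).

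Tgfbi encodes a secreted matrix protein that is induced by TGF-β and binds collagens and integrins. It ran from 14.02 to 29.3 CPM (median 24.2) in shSCR/L-G6pc-/- and from 29.1 to 39.5 CPM (median 31.999) in shChREBP/L-G6pc-/- livers. All but 1 of the 9 shChREBP libraries lay above all shSCR libraries. In L-G6pc+/+ livers it ran from 17.3 to 37.4 CPM (median 27.7) with shSCR and from 23.04 to 38.1 CPM (median 33.2) with shChREBP, and these groups overlapped. Its value with shChREBP was 0.44 ± 0.13 in L-G6pc-/- livers (adjusted p = 0.0246, edgeR) and 0.23 ± 0.13 in L-G6pc+/+ livers (adjusted p = 0.311, edgeR). The call was lost without s23, s24 or s32 (0.37 to 0.50 over all fits that left out 1 library, adjusted p up to 0.0623, edgeR). Without the 4 libraries the value was 0.38 (adjusted p = 0.267, edgeR).

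Fn1 encodes fibronectin, which hepatocytes secrete into plasma and mesenchymal cells deposit in matrix. It was the 1 member that fell, from 952 to 1414 CPM (median 1217) in shSCR/L-G6pc-/- to 836 to 1169 CPM (median 952) in shChREBP/L-G6pc-/- livers. The ranges overlapped, with all 9 shChREBP libraries below the shSCR median. The log2 fold change was -0.29 ± 0.09 (adjusted p = 0.041, edgeR). It fell short of the threshold with library sizes in place of TMM (-0.19, adjusted p = 0.167, edgeR), without the filter on low counts (adjusted p = 0.19), with only the 2 groups compared (adjusted p = 0.102) and without the 4 libraries (-0.20, adjusted p = 0.455, edgeR). It also fell short when any of s18 to s20, s22 to s25, s27, s29, s30 or s32 was left out (-0.33 to -0.25 over all fits that left out 1 library, adjusted p up to 0.0938, edgeR). Summed hepatocyte markers had medians of 24982 CPM in shSCR/L-G6pc-/- and 19473 CPM in shChREBP/L-G6pc-/- livers, and their part in the change of Fn1 was not tested.

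Sparc and Spp1 were called in shChREBP/L-G6pc-/- against shSCR/L-G6pc+/+ livers. Sparc, which encodes a collagen-binding glycoprotein, ran from 159 to 321 CPM (median 223) in shSCR/L-G6pc+/+ and from 220 to 509 CPM (median 360) in shChREBP/L-G6pc-/- livers, and 6 of the 9 libraries lay above all shSCR libraries. Sparc was higher by 0.57 ± 0.17 on the log2 scale (adjusted p = 0.0177, edgeR), 0.49 without s32 (adjusted p = 0.0522, edgeR) and 0.35 without the 4 libraries (adjusted p = 0.379, edgeR). Against shSCR/L-G6pc-/- livers (165 to 403 CPM, median 230) Sparc had a value of 0.50 ± 0.17 (adjusted p = 0.0569, edgeR), which passed in 5 of the 10 alternatives. Spp1 encodes osteopontin, a secreted phosphoprotein also made by macrophages and bile duct cells. It ran from 3.03 to 15.6 CPM (median 6.87) in shSCR/L-G6pc+/+ and had medians of 13.8 CPM in shChREBP/L-G6pc+/+ (6.32 to 20.4), 12.8 CPM in shSCR/L-G6pc-/- (6.43 to 24.1) and 14.2 CPM in shChREBP/L-G6pc-/- livers (8.55 to 25.4). The other 3 groups overlapped with the first and with each other. Against shSCR/L-G6pc+/+ its values were 0.76 ± 0.28 (adjusted p = 0.0987, edgeR), 0.74 ± 0.28 (adjusted p = 0.169, edgeR) and 0.96 ± 0.27 (adjusted p = 0.0132, edgeR), in the same order. The last was 0.86 without the 4 libraries (adjusted p = 0.117, edgeR).

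The remaining tested genes of this group, Dcn, Lum, Fbn1, Ecm1 and Efemp1, were called in none of the 6 comparisons. Dcn and Lum encode decorin and lumican, relatives of biglycan. Dcn had a value of 0.26 ± 0.10 with shChREBP in L-G6pc-/- (adjusted p = 0.0914, edgeR) and 0.26 ± 0.10 in L-G6pc+/+ livers (adjusted p = 0.113, edgeR). The former passed with library sizes in place of TMM (0.36, adjusted p = 0.0145, edgeR). Ecm1, a secreted protein made by hepatocytes, was at -0.37 ± 0.13 in shSCR/L-G6pc-/- against shSCR/L-G6pc+/+ livers (adjusted p = 0.118, edgeR) and passed there with library sizes in place of TMM (-0.40, adjusted p = 0.0464, edgeR). Thbs1, which encodes the TGF-β activator thrombospondin-1, was too low to test, with 15 to 33 counts summed over a group.

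Of the 7 genes of crosslinking and turnover 4 were tested, and 0 were called for shChREBP within either genotype by edgeR, DESeq2 or limma-voom. At an unadjusted p under 0.05 there was 1 in L-G6pc-/- and 0 in L-G6pc+/+ livers. Lox, Loxl2 and Mmp2, which encode crosslinking oxidases and a gelatinase, had 17 to 54 counts summed over a group. Timp3, an inhibitor of metalloproteinases that is bound to matrix, ran from 32.4 to 42.4 CPM (median 35.8) in shSCR/L-G6pc+/+ and from 29.1 to 68.9 CPM (median 44.7) in shChREBP/L-G6pc-/- livers. These ranges overlapped, with 5 libraries of the latter group above and 2 below all shSCR libraries. Its log2 fold change of 0.36 ± 0.12 passed narrowly (adjusted p = 0.0487, edgeR). It passed in 4 of the 10 alternatives, among them without the 4 libraries (0.48, adjusted p = 0.0395, edgeR). It was lost when any of s1 to s5, s7, s8, s27 to s29, s31 or s32 was left out (0.27 to 0.42 over all fits that left out 1 library, adjusted p up to 0.13, edgeR). Timp2, Mmp14 and Loxl1 had values of 0.14 to 0.38 with shChREBP in L-G6pc-/- livers, none of them called.

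Of the 8 stellate and mesenchymal cell genes, 7 were tested and none was called for shChREBP within either genotype or for the loss of G6pc by edgeR, DESeq2 or limma-voom. In each of these comparisons 1 had an unadjusted p under 0.05. All 7 had values above 0 with shChREBP in L-G6pc-/- livers (0.05 to 1.09, median 0.36) and in L-G6pc+/+ livers (0.07 to 0.59, median 0.18). Lrat, the enzyme that stores vitamin A as retinyl esters, had a median of 13.7 CPM (7.24 to 18.5) in shSCR/L-G6pc-/- and 17.3 CPM (12.2 to 23.6) in shChREBP/L-G6pc-/- livers, with a log2 fold change of 0.43 ± 0.18 (adjusted p = 0.133, edgeR). It passed with library sizes in place of TMM (0.55, adjusted p = 0.0471, edgeR). Reln, the secreted stellate cell protein reelin, had a value of 0.05 ± 0.13 (adjusted p = 0.859, edgeR) and Pdgfrb, the receptor for platelet-derived growth factor, 0.36 ± 0.28 (adjusted p = 0.487, edgeR). Acta2, smooth muscle actin, ran from 1.67 to 8.34 CPM (median 2.76) in shSCR/L-G6pc-/- and from 2.59 to 21.5 CPM (median 6.84) in shChREBP/L-G6pc-/- livers, while single libraries of the L-G6pc+/+ groups reached 32.9 CPM (s2) and 31.7 CPM (s15). Its value of 1.09 ± 0.58 did not pass (adjusted p = 0.265, edgeR).

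Vim, the intermediate filament protein vimentin of mesenchymal cells and leukocytes, was called in 1 comparison. It ran from 5.45 to 23.7 CPM (median 12.9) in shSCR/L-G6pc+/+ and from 16.2 to 26.6 CPM (median 18.2) in shChREBP/L-G6pc-/- livers. The groups overlapped, and all 9 libraries of the latter lay above the median of the former. The log2 fold change was 0.62 ± 0.21 (adjusted p = 0.0459, edgeR), a call that was lost without the 4 libraries (0.44, adjusted p = 0.427, edgeR). It was also lost when any of s1, s3 to s8, s25, s28 to s30, s32 or s33 was left out (0.51 to 0.81 over all fits that left out 1 library, adjusted p up to 0.106, edgeR). Tgfb1, the ligand that drives stellate cells to make matrix, had 0.86 ± 0.44 with shChREBP in L-G6pc-/- livers (adjusted p = 0.239, edgeR) at levels of 0 to 7.44 CPM over all libraries.

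Other genes of the matrix showed changes in both directions. Of 20 tested other matrix genes, 1 was higher and 2 were lower with shChREBP in L-G6pc-/- livers. These were Sparcl1, a relative of Sparc (1.08 ± 0.25, adjusted p = 0.00564, edgeR), the plasma protein vitronectin Vtn (-0.33 ± 0.09, adjusted p = 0.0137, edgeR) and the syndecan Sdc2 (-0.38 ± 0.10, adjusted p = 0.018, edgeR). Of 25 tested genes of collagen and matrix processing, 3 were higher and 1 was lower. Over all genes tested, 3.33% were called higher and 4.23% lower in this comparison. Tgm2, the crosslinking enzyme transglutaminase 2, ran from 94.7 to 168 CPM (median 130) with shSCR and from 163 to 379 CPM (median 210) with shChREBP. Its log2 fold change was 0.89 ± 0.14 (adjusted p = 7.84e-05, edgeR). Adamts2, the procollagen N-proteinase (0.93 ± 0.25, adjusted p = 0.0143, edgeR), and the proteoglycan-cleaving Adamts1 (0.69 ± 0.21, adjusted p = 0.037, edgeR) were also higher, and P4hb, a subunit of prolyl 4-hydroxylase, was lower (-0.28 ± 0.08, adjusted p = 0.0217, edgeR). Without the 4 libraries Tgm2 (0.59, adjusted p = 0.0142, edgeR) and Adamts2 (1.08, adjusted p = 0.0496, edgeR) were still called. The other 5 were not, at 1.05 for Sparcl1 (adjusted p = 0.0868, edgeR), -0.27 for Vtn, -0.23 for Sdc2, 0.56 for Adamts1 and -0.26 for P4hb. With single libraries left out, Sdc2 was lost without s21, P4hb without s21 or s23, and Adamts1 without s22 to s24, s29 or s30.

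The same lists were examined in the other comparisons. For the loss of G6pc, 1 gene of the 20, the basement membrane collagen Col15a1, was higher (0.83 ± 0.24, adjusted p = 0.0472, edgeR), a call lost without any 1 of 12 single libraries, and 0 of the processing genes were called by edgeR (6 at an unadjusted p under 0.05). Over all genes tested, 3.23% were called for the loss of G6pc (2.2% higher and 1.03% lower). With shChREBP in L-G6pc+/+ livers, 1 gene of the 20, the syndecan Sdc4, was higher (0.63 ± 0.15, adjusted p = 0.0127, edgeR). There 0 of the 25 processing genes were called by edgeR, and 5.39% of all genes tested (2.16% higher and 3.23% lower). In shChREBP/L-G6pc-/- against shSCR/L-G6pc+/+ livers, 2 of the 20 other matrix genes were higher and 2 lower. Of the 25 processing genes, 6 were higher and 1 was lower, where 13.2% of all genes tested were called (6.87% higher and 6.37% lower). Against shChREBP/L-G6pc+/+ livers these counts were 2 and 3, and 5 and 1, where 11% of all genes tested were called (6.14% higher and 4.9% lower).

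The paired chains of type I collagen and type III collagen varied together among libraries of the same group, and other partners did so weakly or not detectably. Of these partners, Col5a2, Col6a1, Col6a2 and Tagln did not pass the filter on low counts. The part of low counts in the correlations of their pairs was not tested. Log2 CPM of 7 pairs, taken as deviations from the group mean, were correlated over the 33 libraries, with permutation within groups (100000 resamples, two-sided) and Benjamini-Hochberg adjustment over the 7 pairs. Col1a1 and Col1a2 had a Pearson r of 0.80 (p = 2e-05, adjusted 1.4e-04) and a Spearman rho of 0.63 (permutation p = 1.7e-04, adjusted 0.00119). Without s2 and s20, the libraries farthest from the median of Col1a1, r was 0.62. Within the groups r was 0.91 in shSCR/L-G6pc+/+, 0.82 in shChREBP/L-G6pc+/+, 0.75 in shSCR/L-G6pc-/- and 0.61 in shChREBP/L-G6pc-/-. Col1a1 and Col3a1 had an r of 0.75 (permutation p = 5e-05, adjusted 1.75e-04) and a rho of 0.60 (permutation p = 4.8e-04, adjusted 0.00168), with 0.61 without s2 and s20, and 0.79, 0.61, 0.76 and 0.81 within the groups in the same order.

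For Col4a1 and Col4a2 r was 0.41 (permutation p = 0.017, adjusted 0.0396) and rho 0.43 (permutation p = 0.0172, adjusted 0.0401). It was 0.37 without s30 and s32, and 0.36 without the 4 libraries that stand apart, where it no longer passed (permutation, adjusted p = 0.149). Acta2 and Tagln had an r of 0.38 (permutation p = 0.0374, adjusted 0.0654) and a rho of 0.28 (permutation p = 0.142, adjusted 0.248). The former was 0.16 without s2 and s15, so that it rests on those libraries. Col5a1 and Col5a2 (r = 0.26, rho = 0.24, permutation p = 0.203 and 0.23, adjusted 0.284 and 0.322) and Lamb1 and Lamc1 (r = 0.07, rho = 0.04, permutation p = 0.724 and 0.827, adjusted 0.845 and 0.849) did not pass. Col6a1 and Col6a2, which are low in all libraries, had an r of -0.00 and a rho of 0.04 (permutation p = 0.993 and 0.849, adjusted 0.993 and 0.849). Their r was 0.36 in shSCR/L-G6pc+/+, -0.72 in shChREBP/L-G6pc+/+, 0.59 in shSCR/L-G6pc-/- and 0.52 in shChREBP/L-G6pc-/- livers, and whether the groups differed was not tested. Within the groups in the same order, r was 0.20, 0.14, 0.74 and 0.56 for Col4a1 with Col4a2, 0.50, -0.06, 0.13 and 0.27 for Col5a1 with Col5a2, 0.47, -0.03, 0.29 and -0.42 for Lamb1 with Lamc1, and 0.29, 0.76, 0.26 and 0.35 for Acta2 with Tagln.

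**Figure D4:**
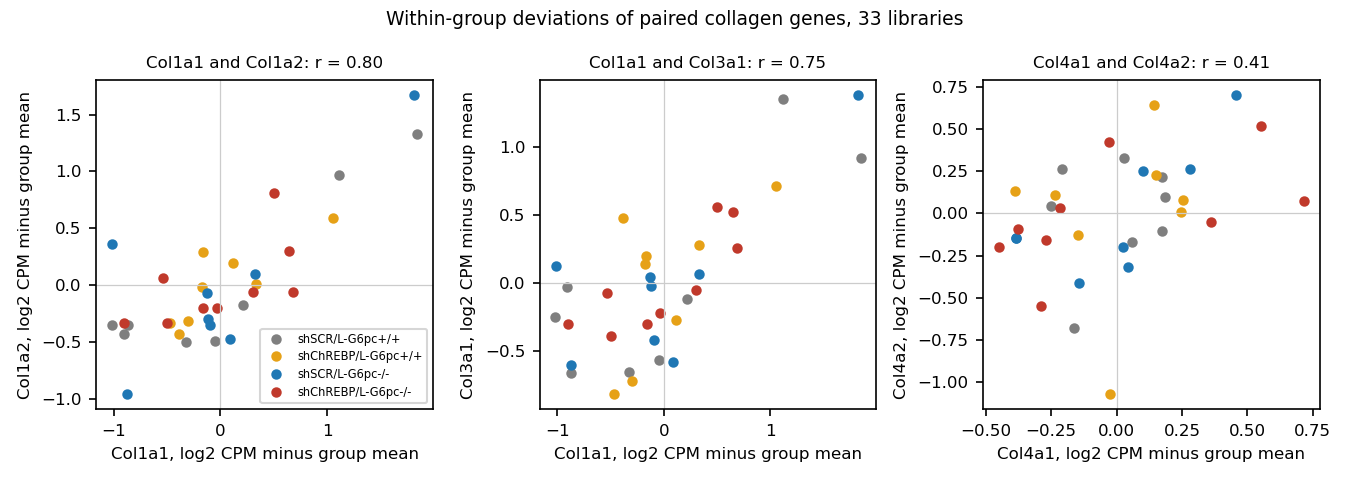
Deviations of log2 CPM from the group mean for paired collagen genes, 1 point for each of the 33 libraries, coloured by group. Points follow a common line for Col1a1 with Col1a2 (r = 0.80) and with Col3a1 (r = 0.75) and are more loosely placed for Col4a1 with Col4a2 (r = 0.41).

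In the tested members, the upper ends of the groups were often set by few libraries. In shSCR/L-G6pc-/- livers s20 had the highest value of its group in 21 of the 36 tested members. In the other groups s2 had it in 14, s15 in 13 and s32 in 12. How often these libraries were the highest over all genes tested was not counted. The 4 shChREBP/L-G6pc-/- libraries that stand apart lay wholly above the other 5 in 5 of the 36 members, Col1a1, Col3a1, Col4a1, Nid1 and Vim, and wholly below them in 0. These 4 were picked by the levels of all genes, and the same share over all genes tested was not counted. Whether the members differ from other genes in this was not tested. Summed over the 6 fibrillar collagens, s20 stood at 203 CPM, against 74.7 to 109 CPM in the other 7 libraries of its group. Summed over all 44 members, the groups had medians of 3031 to 3206 CPM.

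Some markers of other liver cells were also called. With shChREBP in L-G6pc-/- livers, 2 of 12 hepatocyte markers were lower and 11 of 12 had values below 0. Over all genes tested, 7.56% were called there (3.33% higher and 4.23% lower). In the same comparison 3 of 12 macrophage markers were higher (C1qa, C1qc and Clec4f), as was 1 of 12 sinusoidal endothelial markers, Pecam1 (0.44 ± 0.13, adjusted p = 0.0339, edgeR). Without the 4 libraries these 6 markers had the same sign and none was called. Summed macrophage markers ran from 1031 to 2465 CPM in shSCR/L-G6pc-/- and from 1638 to 2522 CPM in shChREBP/L-G6pc-/- livers, and summed endothelial markers from 554 to 754 CPM and from 614 to 791 CPM. Of the tested bile duct (3), leukocyte (3), smooth muscle (2) and mesothelial (3) markers none was called by edgeR in this comparison, and 1, a bile duct marker, had an unadjusted p under 0.05. In the 4 libraries that stand apart, summed macrophage markers (2085 to 2522 CPM) and bile duct markers (79.0 to 94.3 CPM) lay at the upper end of the group, where the other 5 had 1638 to 2170 and 57.0 to 72.9 CPM. In shChREBP/L-G6pc-/- against shSCR/L-G6pc+/+ livers, 6 of 12 hepatocyte markers were lower, 3 of 12 macrophage markers were higher and 0 of 12 endothelial markers were called. Over all genes tested, 6.87% were called higher and 6.37% lower there. Summed hepatocyte markers had medians of 32134 CPM in shSCR/L-G6pc+/+ and 19473 CPM in shChREBP/L-G6pc-/- livers. The part of these cell types in the changes of matrix genes was not tested.

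**Figure D5:**
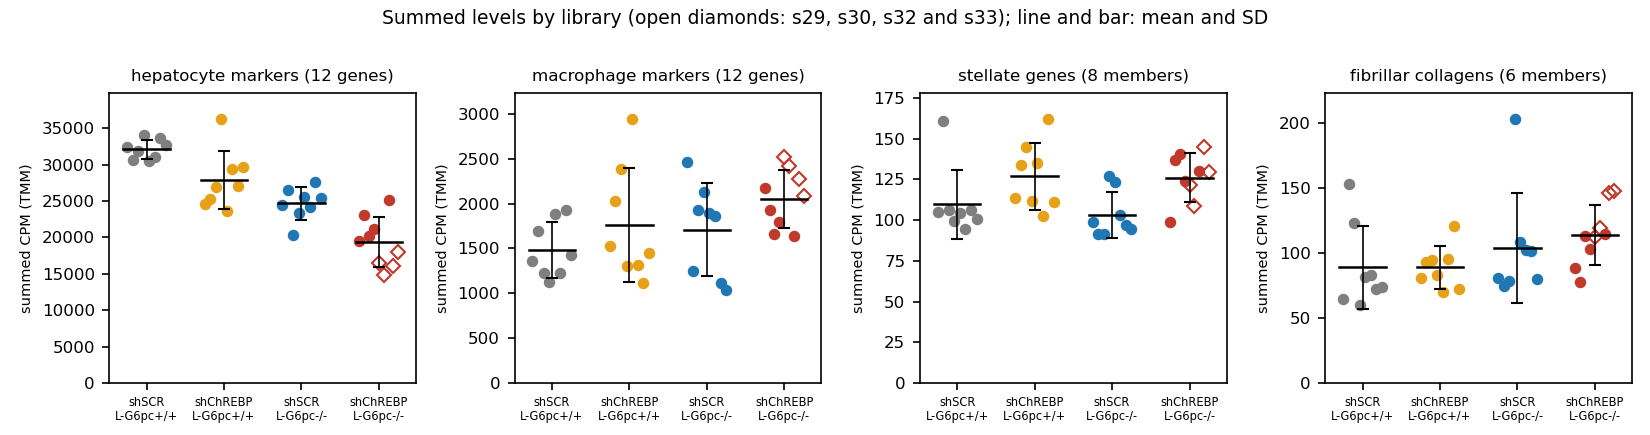
Summed normalised read counts (y axis, CPM, starting at 0) of hepatocyte markers, macrophage markers, stellate and mesenchymal members and fibrillar collagen members in each library by group (x axis), with the mean and SD, and open diamonds for s29, s30, s32 and s33. The 4 open diamonds lie at 14769 to 17964 CPM for hepatocyte markers, the lowest values of all 33 libraries.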

How the data were processed

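Liver RNA was measured by 3' QuantSeq in 33 libraries of 4 groups, taken from the labels. Per the labels and the study's methods, the authors aligned reads with HISAT to GRCm38, sorted them with SAMtools, and deposited raw counts per gene made with HTSeq (unit: count). The authors also deposited a normalised table made with voom of limma (unit: signal), whose values are linear, so their log2 was taken. Versions and strand setting are not given in the sources used here. Genes were named from GENCODE M21 (25817 of 25988).

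The deposited counts were fitted with edgeR 4.0.16 under R 4.3.3 (filterByExpr, minimum count 10, minimum total 15, TMM, quasi-likelihood test, all 4 groups in 1 fit, 10179 genes tested), with DESeq2 1.42.0 and limma 3.58.1 as alternatives. Correlations used log2 CPM with a prior count of 2. Steps were tested on simulated data. Members called in at least 1 comparison were described by library, and at most 4 called genes of each other list were named for any 1 comparison. The members and lists were chosen with earlier results of these data known, as were the alternatives that leave out s29, s30, s32 and s33 or s9 and s13. G6pc reads at the 3' end are no measure of its deletion. Col4a1 and Col4a2 overlap at their starts, away from the counted 3' ends. Depth was 1497843 to 3546852 counts per library, and Gm42418 took 4.22% to 15.7% of them. A list of other stellate cell markers was also tested and is not reported here.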

Additional observations from a re-analysis of the deposited data

Results flagged for a closer look

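Among the 52 combinations of a called member and a group, 6 had a library far from the rest of its group by Dixon's 95% criterion. With independent, normally distributed values, chance flags about 1 in 20. That rate need not hold here, since CPM were used without a log scale and the combinations share libraries. The shSCR/L-G6pc-/- library s20 was the highest in 3 of the 6 flagged combinations. Its Col1a1 stood at 33.4 CPM with the next library at 11.3 CPM (gap over range 0.75), its Col6a3 at 38.5 CPM with the next at 23.7 CPM (0.659), and its Spp1 at 24.1 CPM with the next at 13.6 CPM (0.592). In shChREBP/L-G6pc+/+ livers, Col1a1 of s15 stood at 13.3 CPM above 7.68 CPM (0.604) and Sparc of s9 at 409 CPM above 263 CPM (0.667). In shChREBP/L-G6pc-/- livers, Tgfbi of s32 stood at 39.5 CPM above 32.8 CPM (0.651). By edgeR, 0 of the 36 tested members passed the test of whether the effect of shChREBP depended on genotype.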

How the results depend on the processing

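No paired analysis was possible because the library numbers in the labels are not shared between the groups. All 18 called values of the 13 called members kept their sign in the 10 alternatives, and 37 of the 198 values that were not called changed sign in at least 1. Without s29, s30, s32 and s33, 1 member was called with shChREBP in L-G6pc-/- (6 with all libraries), 1 against shSCR/L-G6pc+/+ (9), 1 against shChREBP/L-G6pc+/+ (2), and 1 in the test of whether genotypes differ (0), and r of Col4a1 with Col4a2 was 0.36 (0.41). Over all genes tested, the share called fell in the same fits from 7.56% to 1.02%, from 13.2% to 3.09% and from 11% to 8.78%, and for genotypes it went from 0.0786% to 0.356%. The fits hold fewer libraries, and the cause was not tested further. Library sizes in place of TMM called 1 member for the loss of G6pc (0) and 5 in shChREBP/L-G6pc-/- against shChREBP/L-G6pc+/+ (2), as did the fit of only these 2 groups (5). With shChREBP in L-G6pc-/- livers library sizes called 9 higher and 0 lower in place of 5 and 1, with Col5a1, Dcn, Lrat and Sparc gained and Fn1 lost, and against shSCR/L-G6pc+/+ they called 11 (9), with Col3a1 and Hspg2 gained. With library sizes the median of all genes with shChREBP in L-G6pc-/- livers moved to 0.11, and 75.8% of called genes were higher in place of 44.03%. The share was 68.2% in place of 51.9% against shSCR/L-G6pc+/+, 74.0% in place of 55.6% against shChREBP/L-G6pc+/+, and 57.6% in place of 68.1% for the loss of G6pc. DESeq2 called 1 member for the difference between genotypes (0), and leaving out s9 and s13 called 2 with shChREBP in L-G6pc+/+ (1). Without single libraries the counts ran from 1 to 2 for shChREBP in L-G6pc+/+ (2 without s4 or s12), 3 to 8 in L-G6pc-/- (3 without s23, s24 or s32), 5 to 11 against shSCR/L-G6pc+/+ (5 without s32), and 1 to 3 against shChREBP/L-G6pc+/+. Depth left 8 members untested and limits the scarce collagens and Tgfb1 most.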

Other observations

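Transcripts for macrophage elastase (Mmp12), which cleaves elastin and is made by macrophages, were higher in shChREBP/L-G6pc-/- livers than in both L-G6pc+/+ groups. Its normalised read counts ran from 0 to 12.1 CPM (median 0.615) in shSCR/L-G6pc+/+, from 0 to 3.58 CPM (median 0.805) in shChREBP/L-G6pc+/+, from 0.451 to 27.8 CPM (median 1.53) in shSCR/L-G6pc-/- and from 1.35 to 35.0 CPM (median 6.62) in shChREBP/L-G6pc-/- livers. All groups overlapped. The log2 fold change was 2.24 ± 0.70 against shSCR/L-G6pc+/+ (adjusted p = 0.0282, edgeR) and 3.48 ± 0.84 against shChREBP/L-G6pc+/+ livers (adjusted p = 0.00565, edgeR). Without s29, s30, s32 and s33 these were 1.05 (adjusted p = 0.595, edgeR) and 2.29 (adjusted p = 0.132, edgeR), and the first was also lost without s1, s4 to s8, s30 or s32 alone. Mmp15, a membrane-anchored metalloproteinase, was 0.75 ± 0.14 (adjusted p = 4.47e-04, edgeR) and 0.50 ± 0.14 (adjusted p = 0.02, edgeR) higher in the same comparisons, and 0.58 (adjusted p = 0.0411, edgeR) and 0.34 (adjusted p = 0.198, edgeR) without the 4 libraries. Neither Mmp12 nor Mmp15 was called by edgeR in shChREBP/L-G6pc-/- against shSCR/L-G6pc-/- livers.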
